A study of Mus musculus with 69 samples.

Results

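Read counts from bulk RNA sequencing are described for 8 mouse genes, which encode the core machinery of mitochondrial fission and fusion: Dnm1l, Mff, Fis1, Mief1, Mief2, Mfn1, Mfn2 and Opa1. They were taken by symbol from a table of 55367 gene symbols, all 8 were found, and all 8 passed the low-count filter in every test. The table holds 69 libraries, 3 replicates in each of 23 conditions, of E14Tg2A mouse embryonic stem cells and of gastruloids made from them, which are aggregates that pass from pluripotency through a gastrulation-like stage. The replicates came from 3 separate experiments.

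The samples came from 3 clones. WT–mCherry cells carry an H2B–mCherry transgene under the EF1α promoter, WT–emiRFP cells carry an H2B–emiRFP670 transgene under the CAG promoter, and p53KO–emiRFP cells are a daughter clone of WT–emiRFP with a homozygous frameshift in Trp53, selected with Nutlin-3a. Each genotype was therefore 1 clone per colour, and an effect of p53 loss cannot be told apart from other differences of the p53KO clone. All clones were profiled as mES cells in serum and LIF (0 h). WT–mCherry cells were then aggregated with either WT–emiRFP or p53KO–emiRFP cells, and the colours were separated by FACS at 48, 72, 96, 120 and 144 h. Gastruloids of both kinds received the Wnt agonist CHIR99021 from 48 to 72 h. Those sorted at 48 h had not been through this treatment, so that the step from 48 to 72 h also spans it. WT gastruloids were seeded with 150 cells of each colour and mixed gastruloids with 150 WT–mCherry and 25 p53KO–emiRFP cells. Neighbour genotype therefore cannot be told apart from seeding number and aggregate size. From 48 h on, the same holds for the genotype of p53KO–emiRFP against WT–emiRFP cells, which came from different gastruloids. The sorted populations are called by clone and neighbour, for example WT–mCherry beside p53KO. Values for single libraries are read counts divided by the size factor of the library, called normalized read counts.

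Libraries held 26722541 to 72981570 counts, with a median of 53098728, and the members had between 305 and 14213 raw counts in a library. Trp53 had 1506 to 2589 normalized read counts in the 18 p53KO–emiRFP libraries and 13902 to 27511 in the 51 WT libraries. H2bc14, a histone gene whose counts followed the emiRFP clones, had 4934 to 10517 in their 36 libraries and 6.20 to 926 in the 33 WT–mCherry libraries, the highest in WT–mCherry cells beside p53KO at 144 h. The summed level of 10 pluripotency markers was 226000 to 262036 in mES cells. In bulk RNA, fewer cells of a type and less RNA per cell cannot be told apart.

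Mitochondria divide and fuse continuously. Fission is driven by DRP1, the dynamin-like GTPase encoded by Dnm1l, which is recruited from the cytosol to the outer membrane by the adaptors that Mff, Mief1, Mief2 and, with a less direct role, Fis1 encode, and constricts the organelle. Fusion of the outer membranes needs the mitofusins Mfn1 and Mfn2, and fusion of the inner membranes and the shape of the cristae need Opa1. Pluripotent stem cells are known for small, rounded mitochondria with few cristae, and the network elongates as cells differentiate.

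Promoter sequences of 250 bases before to 50 bases after a transcription start were taken from RefSeq on GRCm38.p6, where 13 windows matched the 8 genes. They are shown for the mitofusins, which carried the largest difference between p53KO and WT cells, and for Mief2, whose window was the only member window with a p53 half-site. The windows lie on the plus strand at chr3:32529232-32529531 (Mfn1), on the minus strand at chr4:147904612-147904911 (Mfn2, 1 of 3 windows) and on the plus strand at chr11:60728148-60728447 (Mief2), and each is written 5′ to 3′. Capitals mark the p53 half-site and, nearer to the start, the E-box CACGTG.
Mfn1: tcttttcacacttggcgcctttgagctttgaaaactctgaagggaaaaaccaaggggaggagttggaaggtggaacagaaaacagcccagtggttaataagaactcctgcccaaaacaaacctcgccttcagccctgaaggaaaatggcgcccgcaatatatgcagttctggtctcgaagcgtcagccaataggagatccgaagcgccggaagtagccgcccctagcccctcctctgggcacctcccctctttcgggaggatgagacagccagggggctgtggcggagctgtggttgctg
Mfn2: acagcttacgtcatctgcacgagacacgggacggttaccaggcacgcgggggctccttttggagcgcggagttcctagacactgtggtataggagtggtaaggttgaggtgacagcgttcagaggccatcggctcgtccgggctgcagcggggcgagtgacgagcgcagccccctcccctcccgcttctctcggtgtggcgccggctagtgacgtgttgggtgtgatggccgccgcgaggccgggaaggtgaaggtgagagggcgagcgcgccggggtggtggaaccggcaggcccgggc
Mief2: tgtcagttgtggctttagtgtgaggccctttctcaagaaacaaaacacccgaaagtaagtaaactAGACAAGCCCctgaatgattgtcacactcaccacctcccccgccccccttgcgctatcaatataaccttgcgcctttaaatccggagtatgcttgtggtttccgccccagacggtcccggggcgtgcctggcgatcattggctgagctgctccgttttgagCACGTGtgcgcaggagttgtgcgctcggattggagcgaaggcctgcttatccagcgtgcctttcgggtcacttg
Both strands were searched for the E-box and for the p53 half-site. The Mief2 window held 1 of each, at positions −24 and −185 from the start, and neither was found in the other 12 member windows, the 1 of Mfn1 and the 3 of Mfn2 included. Among 32851 mouse promoters of that length, 7.15% held the E-box and 8.36% the half-site. A match to these letters is a description and not a binding site.

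The genes lie on GRCm38 at chr16:16312230-16358959 (Dnm1l, minus strand), chr1:82724890-82752394 (Mff, plus), chr5:136953275-136966234 (Fis1, plus), chr15:80234018-80253371 (Mief1, plus), chr11:60728398-60732951 (Mief2, plus), chr3:32529465-32579239 (Mfn1, plus), chr4:147873599-147904704 (Mfn2, minus) and chr16:29579334-29654884 (Opa1, plus). The strand setting of the counting is not given in the sources used here. In the annotation, 4.67% of the exonic bases of Dnm1l overlap the antisense gene Gm49521, 2% of those of Mff overlap C430014B12Rik on the opposite strand, and 2.63% of those of Mief1 overlap AC140267.1 on the same strand. Reads in these stretches may have been assigned otherwise.

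Per kilobase of exon, the transcript of DRP1 was the most abundant of the 8. The divisor was the union of all annotated exons, 1.714 kb for Fis1 and 9.757 kb for Mff, whether or not each exon was used in these cells. Order between genes depends on it: undivided, the median of Mff was 3046 and that of Fis1 2862 normalized read counts. Dnm1l had the highest mean level of the 8 genes in 23 of 23 conditions, with condition means from 1613 to 2463 normalized read counts per kilobase. Fis1 came next in every condition, with 1311 to 2023, followed by Opa1, with 608 to 896. Mief2 was last in 21 conditions, at 248 to 326, and Mff in the other 2. Neighbours in this order did not always differ beyond the spread of replicates. The 3 libraries of Dnm1l lay above the 3 of Fis1 in 15 of 23 conditions, and those of Fis1 above Opa1 in 23. Mfn1 lay above Mfn2 in 13 conditions and Mfn2 above Mief1 in 11, since the 3 genes exchanged places over the course. Mief1 lay above Mff in 23 conditions, and Mff above Mief2 in 11.

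**Figure D1:**
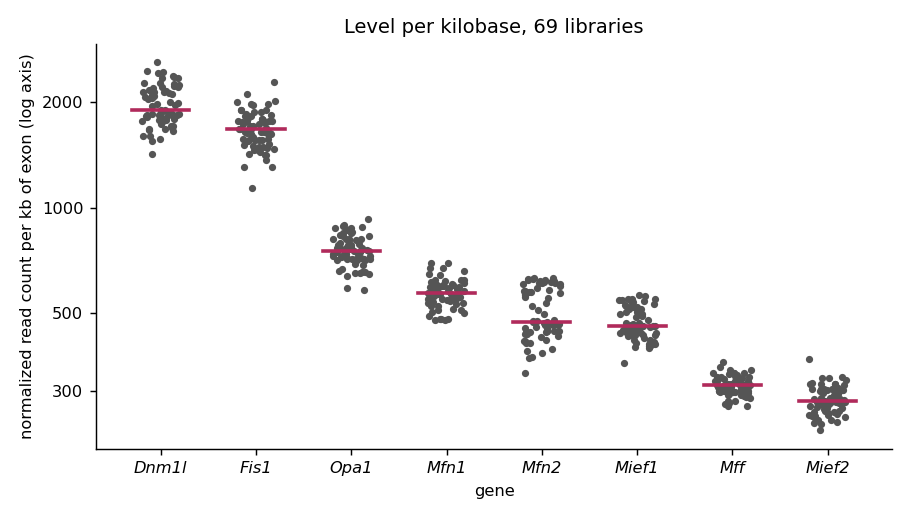
Normalized read counts per kilobase of exon of the 8 genes in the 69 libraries (dots), with the median as a line. The axis is logarithmic. Dnm1l and Fis1 have the highest medians, at 1891 and 1670, and Mff and Mief2 are the lowest.

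All members stayed expressed and moved little: the highest condition mean was 1.18 times the lowest for Mff, 1.31 times for Mief2, 1.37 times for Mief1, 1.38 times for Mfn1, 1.47 times for Opa1, 1.53 times for Dnm1l, 1.54 times for Fis1 and 1.69 times for Mfn2. The median coefficient of variation between replicates was 2.34% for Mfn2 and at most 5.57%, for Mief2. The change of Mfn2 was therefore the widest and the most tightly measured. The lowest condition mean of Dnm1l, Fis1, Mief1, Mfn2 and Opa1 was in the same population, WT–mCherry beside p53KO at 144 h. The share of all genes with their lowest mean there was not counted.

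The first question was how the machinery moved from mES cells through the gastruloid course. For WT cells, consecutive time points were compared in a single edgeR fit of all 69 libraries. WT was the mean of both clones at 0 h and of the 3 sorted WT populations later, so that the mix of clones changed after 0 h. These populations came from the same experiments, and both clones beside WT from the same gastruloids, but the fit counted their libraries as independent. Same-numbered libraries of the WT clones deviated together, with correlations over 0.1 in 16 of 18 pairs. The SEs and p values of WT steps may therefore be too small. From 0 to 48 h 3 of 8 members rose and 1 fell, from 48 to 72 h 4 rose and 1 fell, from 72 to 96 h 0 rose and 5 fell, from 96 to 120 h 0 rose and 3 fell, and from 120 to 144 h 1 rose and 2 fell. Of all 21121 genes, 70.3%, 66.8%, 58.7%, 56.9% and 55.5% passed the threshold (adjusted p under 0.05) in these steps. Every call at 72 to 96 h was a fall. The median log2 change of all 8 members in that step was −0.12, against 0.01 over all genes. Of 14 markers of gastruloid lineages 10 were higher and 3 lower in the same step, and of 10 pluripotency markers 4 were higher and 5 lower. The part of these markers in the falls was not tested. Pluripotency markers did not fall throughout: 7 of 10 were higher and 3 lower from 96 to 120 h (median log2 fold change 0.70), and 8 higher and 1 lower from 120 to 144 h (0.39). Their summed level in WT–emiRFP cells was 51701 to 57505 at 96 h, 82667 to 94300 at 120 h and 107178 to 122885 at 144 h. The part of this rise in the late steps of the members was not tested. The whole course from 0 to 144 h, a contrast chosen after the steps were seen, gave 6 falls and no rise in WT cells (74.6% of all genes called) and 1 rise and 4 falls in p53KO–emiRFP cells (73.8%). Without replicate 2, 4 of these 11 calls were lost, which were Mief1 (−0.07) and Mfn2 (−0.05) in WT and Fis1 (−0.14) and Mief1 (−0.15) in p53KO–emiRFP cells. Fis1 in p53KO–emiRFP cells was also lost without replicate 3 (−0.17). With no low-count filter Mfn2 in WT (−0.10, edgeR adjusted p = 0.135) and Mief1 in p53KO–emiRFP cells (−0.16, edgeR adjusted p = 0.0791) were lost. The falls of Mief1 and Mfn2 in WT were not shared by every WT population. Mief1 had a mean of 3730 at 0 h and 3745 at 144 h in WT–emiRFP cells. Mfn2 went from 2212 in WT–mCherry mES cells to 2243 in WT–mCherry beside WT. WT–emiRFP cells alone were not tested over the whole course.

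Dnm1l, the fission GTPase, declined slowly. Its WT mean was 11389 normalized read counts in mES cells, then 11307, 10730, 9610, 9121 and 8962 at the 5 sorted time points from 48 to 144 h. Only the step from 72 to 96 h passed the threshold, with a log2 fold change of −0.16 (SE 0.05, edgeR adjusted p = 0.00632). Over the whole course it was −0.35 (SE 0.06, edgeR adjusted p = 2.71e-07) in WT and −0.53 (SE 0.09, edgeR adjusted p = 4.66e-07) in p53KO–emiRFP cells. The libraries of WT–emiRFP cells were at 9360, 12195 and 12760 at 0 h and at 8311, 9213 and 10941 at 144 h. Those of p53KO–emiRFP cells were at 12317, 13479 and 12647 at 0 h and at 8303, 9091 and 9249 at 144 h. Both time points overlapped for WT–emiRFP but not for p53KO–emiRFP cells. Without replicate 2 the step from 72 to 96 h was −0.17 (edgeR adjusted p = 0.0537), and without replicate 3 it was −0.11 (edgeR adjusted p = 0.0529). In WT–emiRFP cells alone, whose clone was the same at both times, it was −0.12 (edgeR adjusted p = 0.277). Dnm1l is a gene the study itself examined in these libraries, so its direction here is not independent of that choice.

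The adaptors did not move as a block. Mief1 rose by a log2 fold change of 0.19 (SE 0.04) to 48 h and fell by 0.22 on the log2 scale (SE 0.03) from 72 to 96 h in WT cells, and likewise rose by 0.19 (SE 0.06) and fell by 0.33 (SE 0.06) in p53KO–emiRFP cells. Fis1 rose to 48 h, by 0.13 (SE 0.05) in WT and 0.19 (SE 0.08) in p53KO–emiRFP cells, and fell in WT cells by 0.11 (SE 0.05) from 48 to 72 h and by 0.18 (SE 0.05) from 96 to 120 h. Mff rose by 0.11 (SE 0.03) from 48 to 72 h and fell by 0.16 (SE 0.03) from 72 to 96 h in WT cells, and in p53KO–emiRFP cells fell by 0.14 (SE 0.05) to 48 h. Mief2 passed in no step in either genotype. The WT–emiRFP mES cell libraries of Fis1 were wide apart, at 3902, 2973 and 2670. The rise in WT cells was 0.03 (edgeR adjusted p = 0.818) in WT–emiRFP cells alone, and with TMM scaling neither the rise in WT (0.12, edgeR adjusted p = 0.0614) nor that in p53KO–emiRFP cells (0.16, edgeR adjusted p = 0.105) passed. Without replicate 2 its early rise in WT cells was 0.11 (edgeR adjusted p = 0.23) and without replicate 3 0.10 (edgeR adjusted p = 0.14), while its fall to 72 h lost its call with TMM scaling (−0.09, edgeR adjusted p = 0.101) and without any 1 of the replicates, with log2 fold changes of −0.10, −0.14 and −0.10. In WT–emiRFP cells alone the rise of Mff was 0.05 (edgeR adjusted p = 0.512) and its fall −0.11 (edgeR adjusted p = 0.0914). The rise of Mff in WT cells was 0.09 (edgeR adjusted p = 0.0845) without replicate 3. In p53KO–emiRFP cells from 0 to 48 h, leaving out replicate 2 ended the calls of Mff (−0.08), Fis1 (0.16) and Mief1 (0.19), with edgeR adjusted p values of 0.335, 0.284 and 0.059, leaving out replicate 3 that of Mff (−0.13, edgeR adjusted p = 0.174) and leaving out replicate 1 that of Fis1 (0.20, edgeR adjusted p = 0.0527).

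The mitofusins had the largest steps in WT cells, in opposite directions from 0 to 48 h and from 120 to 144 h and both upward from 48 to 72 h. Mfn1 fell by 0.31 on the log2 scale (SE 0.03, edgeR adjusted p = 6.35e-13) from 0 to 48 h in WT cells, from a mean of 3877 to 3121, and rose again by 0.23 (SE 0.03) to 72 h. Mfn2 rose by 0.13 (SE 0.03) to 48 h and by 0.33 (SE 0.03, edgeR adjusted p = 2.7e-17) to 72 h, from 2417 to 3048. Mfn2 in WT cells stayed at 3130 at 96 h, fell by 0.40 (SE 0.03, edgeR adjusted p = 3.57e-20) to 2374 at 120 h and by 0.20 (SE 0.03) to 2064 at 144 h. Mfn1 fell by 0.08 (SE 0.03) from 72 to 96 h and rose by 0.12 (SE 0.03) from 120 to 144 h. Opa1, the inner membrane fusion GTPase, rose by 0.10 (SE 0.03) from 48 to 72 h, then fell by 0.17 (SE 0.03), 0.10 (SE 0.03) and 0.08 (SE 0.03) in the following steps, and ended 0.30 lower (log2 fold change −0.30, SE 0.04) at 144 h than in mES cells. The calls of Mfn1 from 72 to 96 h (−0.06 without replicate 3, edgeR adjusted p = 0.146) and of Opa1 from 48 to 72 h (0.09 without replicate 2, 0.0624), 96 to 120 h (−0.08 without replicate 2, 0.0887) and 120 to 144 h (−0.04 without replicate 1, 0.427) were each lost without that replicate. In WT–emiRFP cells alone the calls of Mfn1 from 72 to 96 h (−0.09, edgeR adjusted p = 0.156) and 120 to 144 h (0.11, 0.0909) and of Opa1 from 48 to 72 h (0.12, 0.0815), 96 to 120 h (−0.11, 0.1003) and 120 to 144 h (−0.06, 0.478) were lost, and Mfn1 rose from 96 to 120 h (0.13, 0.0313). With no low-count filter those of Mfn1 from 72 to 96 h (edgeR adjusted p = 0.175) and Opa1 from 120 to 144 h (0.177) were lost.

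In p53KO–emiRFP cells the same steps gave 3 rises and 2 falls from 0 to 48 h (59.5% of all genes called), 3 rises from 48 to 72 h (46.4%), 3 falls from 72 to 96 h (44.6%), no call from 96 to 120 h (35.0%), and 1 rise and 1 fall from 120 to 144 h (22.7%). For 96 to 120 h, 1 member, Mfn1, had an unadjusted edgeR p under 0.05, and DESeq2 also called 1. Same-numbered replicates deviated together in the 3 steps from 48 to 120 h, where the block added Fis1 from 48 to 72 h (−0.17, edgeR adjusted p = 0.0358), Dnm1l (−0.17, edgeR adjusted p = 0.0317) and Mff (−0.13, edgeR adjusted p = 0.0389) from 72 to 96 h, and Mfn1 from 96 to 120 h (−0.12, edgeR adjusted p = 0.0235). Mfn1 in that step also passed with TMM scaling (−0.14, edgeR adjusted p = 0.0177), while its fall from 72 to 96 h did not (−0.10, edgeR adjusted p = 0.0699). Mfn2 rose by 0.17 (SE 0.04) and 0.35 (SE 0.04) up to 72 h, had means of 3182, 3166 and 3090 at 72, 96 and 120 h, and fell by 0.19 (SE 0.04, edgeR adjusted p = 0.000985) from 120 to 144 h, so that it ended 0.29 (SE 0.04, edgeR adjusted p = 6.98e-08) above the mES cells. Mfn1 fell by 0.23 (SE 0.05), rose by 0.29 (SE 0.05), fell by 0.13 (SE 0.05) and, in the last step, rose by 0.18 (SE 0.05). Opa1 rose by 0.13 (SE 0.06) from 48 to 72 h and fell by 0.25 (SE 0.06) to 96 h. Without replicate 3 the last fall of Mfn2 was −0.14 (edgeR adjusted p = 0.11), and without replicate 2 the last rise of Mfn1 was 0.10 (edgeR adjusted p = 0.34). Without replicate 2 the first rise of Mfn2 was 0.13 (edgeR adjusted p = 0.0804). The rise of Opa1 (0.13 to 0.14) and the fall of Mfn1 from 72 to 96 h (−0.15 to −0.11) were not called without any 1 of the replicates. With no low-count filter and the folds as large, the calls of Mfn2 from 0 to 48 h (edgeR adjusted p = 0.102) and 120 to 144 h (0.136), of Mfn1 from 72 to 96 h (0.306) and 120 to 144 h (0.152), of Opa1 from 48 to 72 h (0.2201) and of Mff from 0 to 48 h (0.219) were lost.

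**Figure D2:**
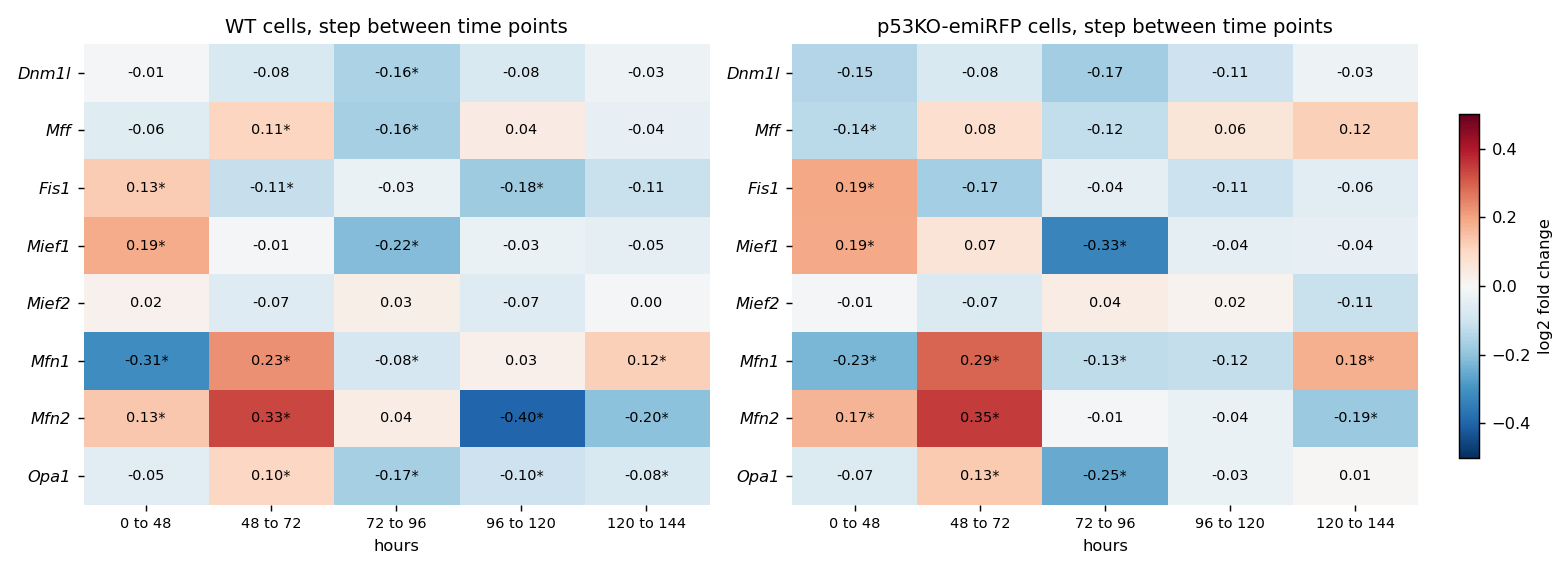
Log2 fold change between consecutive time points (columns, hours) of each gene (rows), in WT cells on the left and p53KO–emiRFP cells on the right. Stars mark an edgeR adjusted p under 0.05. The step of Mfn2 from 96 to 120 h is −0.40 in WT and −0.04 in p53KO–emiRFP cells.

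The next question was whether loss of p53 altered the machinery. It was asked by comparing p53KO–emiRFP with their parental WT–emiRFP cells at each time point in an edgeR fit of its libraries. From 48 h on, these clones came from different gastruloids, and genotype cannot be told apart from seeding number and aggregate size. No member passed at 0 h (6.14% of all genes called), 48 h (22.1%), 72 h (29.1%) or 96 h (23.3%). At these times 0 members had an unadjusted edgeR p under 0.05, and DESeq2 called 0. At 120 h 2 members were higher and 1 lower (51.0%), and at 144 h 3 were higher and 2 lower (65.4%), so that the shares of the 8 were no larger than those of all genes. Same-numbered replicates deviated together in this comparison, and with the replicate number as a block 14 member tests passed in place of 8. The block added Fis1 (log2 fold change 0.10, edgeR adjusted p = 0.0281) and Opa1 (0.09, edgeR adjusted p = 0.00982) at 48 h, and Opa1 (0.11, edgeR adjusted p = 0.0344) at 72 h.

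Mfn2, the outer membrane mitofusin that also tethers mitochondria to the endoplasmic reticulum, showed the largest difference. At 96 h its libraries were at 3114, 3220 and 3164 normalized read counts in p53KO–emiRFP and at 3190, 3258 and 3268 in WT–emiRFP cells. At 120 h they were at 3014, 3060 and 3196 in p53KO–emiRFP and at 2312, 2294 and 2353 in WT–emiRFP cells. The groups overlapped at 96 h and lay wholly apart at 120 h, where the log2 fold change was 0.41 (SE 0.05, 1.33-fold, edgeR adjusted p = 8.92e-06). At 144 h p53KO–emiRFP libraries were at 2774, 2723 and 2648, WT–emiRFP libraries at 2143, 1954 and 1997, and the log2 fold change was 0.42 (SE 0.06, edgeR adjusted p = 4.9e-05). The other WT populations lay with WT–emiRFP cells at 120 h, at 2311, 2417 and 2381 for WT–mCherry beside p53KO and 2469, 2367 and 2461 for WT–mCherry beside WT, each below the lowest p53KO–emiRFP library.

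Mfn1, the other mitofusin, differed in the opposite direction. At 120 h p53KO–emiRFP libraries were at 3091, 2950 and 3204 and WT–emiRFP libraries at 3760, 3649 and 3919, without overlap, and the log2 fold change was −0.29 (SE 0.05, 0.816-fold, edgeR adjusted p = 0.000484). At 144 h they were at 3306, 3681 and 3461 against 3812, 4115 and 4263, again without overlap, with −0.22 (SE 0.06, edgeR adjusted p = 0.00394). The WT–mCherry libraries at 120 h, at 3215 to 3539 with either neighbour, lay between these groups, above the highest p53KO–emiRFP library. At 144 h WT–mCherry libraries beside p53KO, at 3464, 3724 and 3810, overlapped those of p53KO–emiRFP cells.

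The other calls were smaller. At 120 h Fis1 was higher in p53KO–emiRFP cells by 0.17 (SE 0.06, edgeR adjusted p = 0.0371), with libraries at 2804, 2814 and 2691 against 2510, 2339 and 2531. This call was lost with TMM scaling (0.13, edgeR adjusted p = 0.0983), with no low-count filter (edgeR adjusted p = 0.0861) and with all 69 libraries in the fit (edgeR adjusted p = 0.0884), and without replicate 1 (0.18, edgeR adjusted p = 0.19) or replicate 2 (0.12, edgeR adjusted p = 0.16). With the block, Mief1 (−0.12, edgeR adjusted p = 0.015) and Mief2 (0.19, edgeR adjusted p = 0.0148) also passed at 120 h and Fis1 (0.17, edgeR adjusted p = 0.0256) at 144 h. Mief1 at 120 h also passed with TMM scaling (−0.16, edgeR adjusted p = 0.017), and Mief2 with all 69 libraries in the fit (0.19, edgeR adjusted p = 0.0431). At 144 h the fission adaptor Mff was higher by 0.20 (SE 0.05, edgeR adjusted p = 0.00618), with libraries at 3431, 3134 and 3184 against 2658, 2881 and 2972, and Opa1 by 0.15 (SE 0.05, edgeR adjusted p = 0.0251), with 5649, 6009 and 5805 against 5148, 5126 and 5434. Mief1 was lower by a log2 fold change of −0.18 (SE 0.07, edgeR adjusted p = 0.0287), with 3354, 3272 and 3307 against 3640, 3562 and 4033. The groups did not overlap in these 3 genes. Of the 8 members, 5 did not overlap at 120 h and 6 at 144 h, more than were called. Mff lost its call without replicate 1 (0.11, edgeR adjusted p = 0.13), Mief1 without replicate 2 (−0.20, edgeR adjusted p = 0.091) or 3 (−0.12, edgeR adjusted p = 0.12), and Opa1 without replicate 1 (0.16, edgeR adjusted p = 0.07) or 2 (0.11, edgeR adjusted p = 0.25) and with no low-count filter (edgeR adjusted p = 0.0614). Dnm1l did not pass at any time point, with log2 fold changes from 0.16 at 0 h to −0.10 at 144 h.

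**Figure D3:**
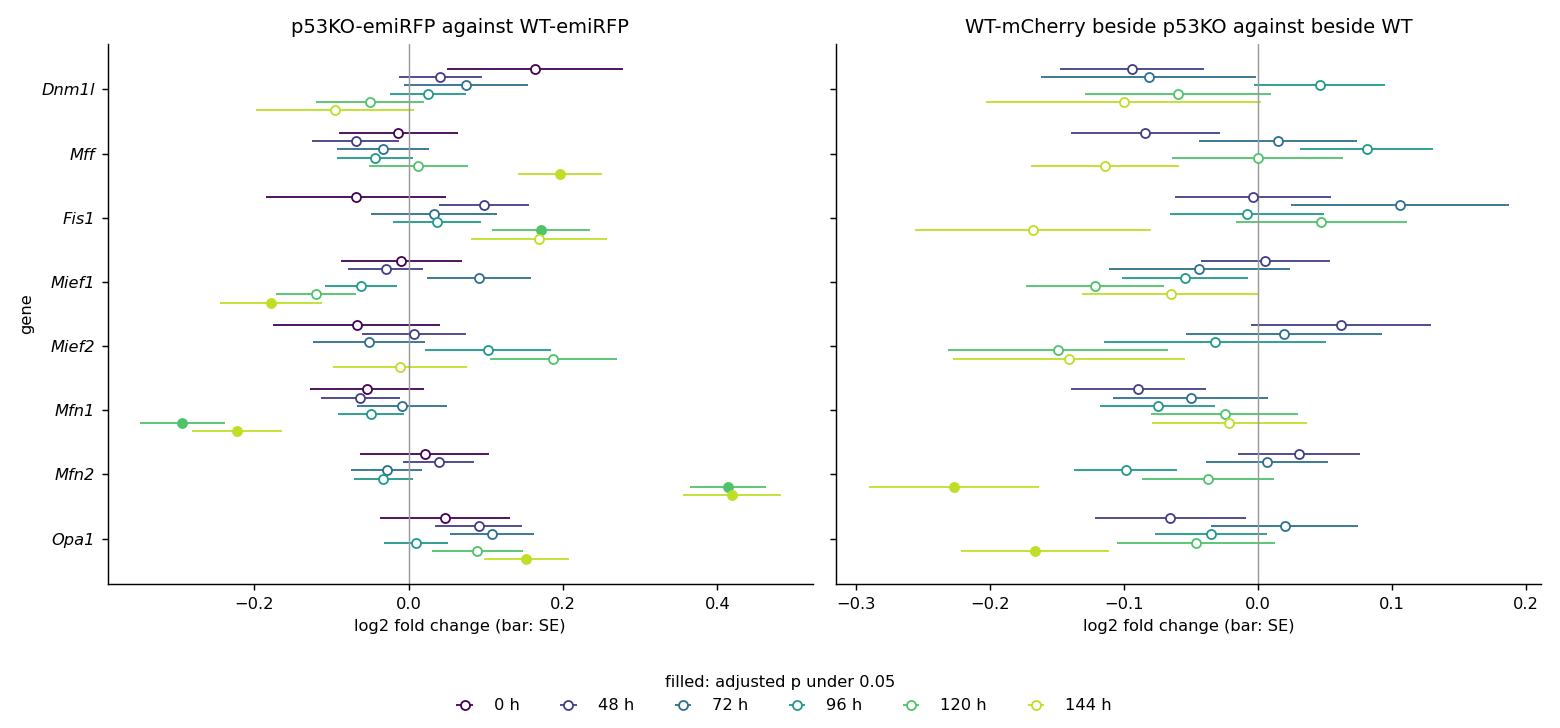
Log2 fold change with its SE of each gene, for p53KO–emiRFP against WT–emiRFP cells on the left and for WT–mCherry cells with p53KO against WT neighbours on the right. Colours mark time points, and filled points an edgeR adjusted p under 0.05. Mfn2 at 120 and 144 h, at 0.41 and 0.42, is farthest from 0.

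Markers of cell state moved with these differences. At 120 h 9 of 10 pluripotency markers were lower and 0 higher in p53KO–emiRFP cells, with a summed level of 27322 to 28835 against 82667 to 94300 in WT–emiRFP cells, and at 144 h 10 of 10 were lower. Of 14 markers of gastruloid lineages, 5 were higher and 4 lower at 120 h, with a summed level of 29255 to 33244 against 16928 to 19969. Their part in the differences of the mitofusins was not tested.

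Whether the genotypes differed in their course was tested as the step of p53KO–emiRFP minus that of WT–emiRFP cells. No member passed from 0 to 48 h (5.99% of all genes called), 48 to 72 h (1.76%), 72 to 96 h (11.0%) or 120 to 144 h (16.9%). In these steps 0, 0, 0 and 1 members had an unadjusted edgeR p under 0.05, and DESeq2 called 0 in each. From 96 to 120 h (30.8%) 2 of 8 passed. The step of Mfn2 was higher in p53KO–emiRFP cells by 0.45 on the log2 scale (SE 0.06, edgeR adjusted p = 6.92e-08) and that of Mfn1 differed by −0.24 (SE 0.07, edgeR adjusted p = 0.00465). Without replicate 2 the difference of Mfn1 was −0.23 (edgeR adjusted p = 0.062), and with no low-count filter its edgeR adjusted p was 0.135. The difference of Mfn2 passed under every alternative run.

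The balance of the mitofusins showed the divergence as 1 number per library. The share of Mfn1 in the summed level of Mfn1 and Mfn2 per kilobase of mES cells was 58.5% ± 1.7 (SD, n = 3) for WT–emiRFP and 57.2% ± 0.6 (SD, n = 3) for p53KO–emiRFP. It declined to 47.6% ± 0.9 and 47.3% ± 0.9 at 96 h. At 120 h it was 58.0% ± 0.6 for WT–emiRFP but 45.9% ± 0.8 for p53KO–emiRFP, and at 144 h 62.9% ± 2.4 and 52.1% ± 1.6. WT–mCherry cells at 120 h were at 54.4% ± 1.1 beside WT and 54.6% ± 1.4 beside p53KO cells. The WT populations had thus left the 96 h value by 120 h, and p53KO–emiRFP cells by 144 h. No test was made of the share itself.

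**Figure D4:**
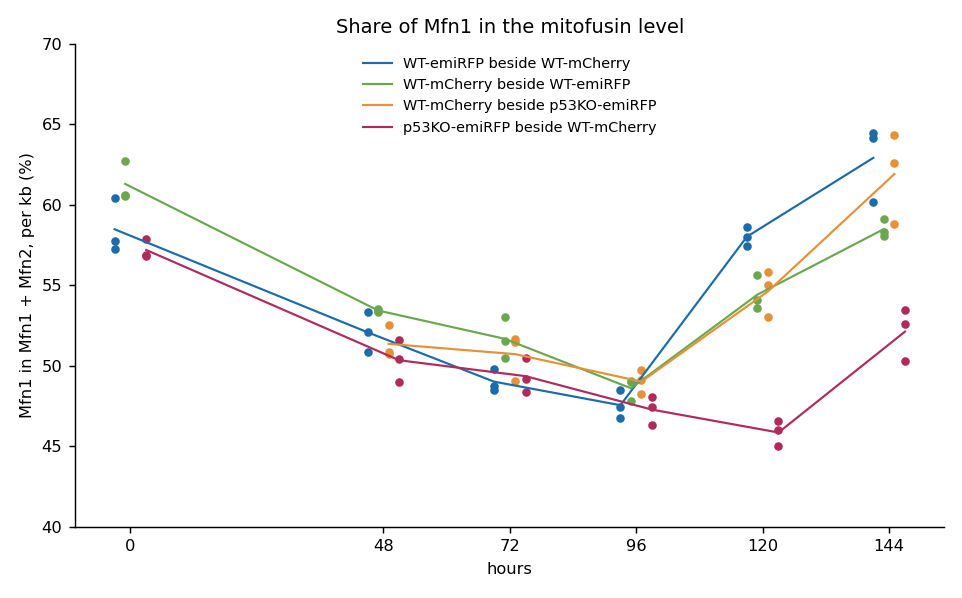
Share of Mfn1 in the level of Mfn1 plus Mfn2, each per kilobase of exon, over time, with 1 dot per library and lines through the means of 3 replicates. The axis runs from 40 to 70%. At 120 h p53KO–emiRFP cells are at 45.9% and WT–emiRFP cells at 58.0%.

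A further question was whether p53KO neighbours altered the machinery in WT cells, asked in WT–mCherry cells by comparing those with p53KO and those with WT neighbours. No member passed at 48 h (0.0736% of all genes called), 72 h (0.559%), 96 h (3.92%) or 120 h (5.94%). At these times 0, 0, 1 and 1 members had an unadjusted edgeR p under 0.05, and DESeq2 called 0. At 144 h 2 of 8 passed, both lower (25.6%). Mfn2 was at 2061, 1753 and 1934 beside p53KO and at 2163, 2263 and 2304 beside WT cells, a log2 fold change of −0.23 (SE 0.06, edgeR adjusted p = 0.0187). Opa1 was at 4589, 4663 and 5112 against 5123, 5390 and 5613, a log2 fold change of −0.17 (SE 0.06, edgeR adjusted p = 0.0401). The groups did not overlap in either gene, and the margin for Opa1 was narrow. They did not overlap in Mff either, at 2746 to 2924 beside p53KO and 3055 to 3070 beside WT cells, and Mff was not called. Opa1 lost its call without any 1 of the replicates, and Mfn2 kept it without replicate 1 only. Mfn2 was −0.16 (edgeR adjusted p = 0.22) without replicate 2 and −0.21 (edgeR adjusted p = 0.12) without replicate 3, and Opa1 was −0.17, −0.15 and −0.18 (edgeR adjusted p = 0.13, 0.27 and 0.052) without each replicate in turn. With only the compared groups in the fit neither passed. With TMM scaling Opa1 was −0.13 (edgeR adjusted p = 0.095), and the share of higher genes among all calls was 49.6% in place of 39.5%.

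Same-numbered replicates deviated together at 48, 72, 96 and 144 h of this comparison. With the block, Dnm1l at 48 h (−0.09, edgeR adjusted p = 0.031), Mfn2 at 96 h (−0.10, edgeR adjusted p = 0.0408) and Fis1 at 144 h (−0.17, edgeR adjusted p = 0.0401) also passed. At 144 h H2bc14 was at 130 to 926 normalized read counts in WT–mCherry cells beside p53KO and at most 136 beside WT cells, against 4934 to 5490 in the p53KO–emiRFP cells of the same gastruloids. Mfn2 in those p53KO–emiRFP cells was higher than in either WT–mCherry population. Of the pluripotency markers 0 were higher and 2 lower at 144 h, with summed levels of 83242 to 91885 beside p53KO and 81039 to 89799 beside WT cells. Of the 14 lineage markers 6 were higher and 3 lower, with a median log2 fold change of 0.30 and summed levels of 14334 to 17821 beside p53KO and 15329 to 16131 beside WT cells. The part of these markers and of H2bc14 in the calls of Mfn2 and Opa1 was not tested.

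WT–mCherry and WT–emiRFP cells without any p53KO cell gave the size of differences between clones of 1 genotype. At 0 h 1 of 8 members passed (11.1% of all genes called). Mief2 was at 697, 694 and 631 in WT–mCherry and at 1005, 816 and 833 in WT–emiRFP mES cells, without overlap, and the log2 fold change was −0.39 (SE 0.11, edgeR adjusted p = 0.0379). The call was lost without replicate 1 (−0.31, edgeR adjusted p = 0.061), 2 (−0.47, edgeR adjusted p = 0.27) or 3 (−0.39, edgeR adjusted p = 0.14). Its p53KO–emiRFP mES cell libraries, at 891, 822 and 821, lay within the range of the parental WT–emiRFP clone. No member passed at 48 h (8.90%), 72 h (7.64%), 96 h (2.15%), 120 h (1.22%) or 144 h (23.8%). At these times 1, 2, 0, 1 and 3 members had an unadjusted edgeR p under 0.05, and DESeq2 called 1 at 72 h and 0 at the others. Where replicates deviated together, the block added Mief2 at 48 h (−0.16, edgeR adjusted p = 0.0302), Mfn1 at 120 h (−0.14, edgeR adjusted p = 0.0353) and, at 144 h, Mief1 (−0.15, edgeR adjusted p = 0.0392) and Mfn1 (−0.13, edgeR adjusted p = 0.0402). At 120 h Mfn2 differed between the WT clones by 0.07 and at 144 h by 0.14, beside the 0.41 and 0.42 between genotypes. With all 69 libraries in the fit, the difference between the WT clones at 144 h passed (edgeR adjusted p = 0.0134). Mfn1 differed between the WT clones by −0.14 at 120 h and −0.13 at 144 h, beside the −0.29 and −0.22 between genotypes. At 0 h its libraries were at 4112, 4028 and 4239 in WT–mCherry and at 3611, 3620 and 3652 in WT–emiRFP mES cells, without overlap, a difference that passed with all 69 libraries in the fit (0.19, edgeR adjusted p = 0.0037).

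Other genes of the pathway were taken from 4 lists. Of 16 regulators of fission, 8 were higher and 2 lower without p53 than in the parental clone at 120 h (median log2 fold change 0.16, against 0.05 over all genes), and 8 higher and 5 lower at 144 h (0.14, against 0.01). Of all genes, 51.0% and 65.4% passed at these times. Akap1, which anchors protein kinase A at the outer membrane, was at a mean of 4104 against 7937 at 144 h, a log2 fold change of −0.95 (SE 0.04). Gdap1, a tail-anchored fission factor, was higher by 1.58 (SE 0.22), at low means of 58.5 and 19.3. Inf2, the formin that assembles actin at endoplasmic reticulum contacts, was lower by a log2 fold change of −0.79 (SE 0.11). A ubiquitin ligase of the outer membrane that acts on DRP1 and the mitofusins, Marchf5, was already lower at 0 h (log2 fold change −0.46, SE 0.09). It remained so at 48 h (−0.59, SE 0.05), 72 h (−0.61, SE 0.05) and 96 h (−0.52, SE 0.05). No member passed at these times without the replicate block, with which Fis1 and Opa1 passed at 48 h and Opa1 at 72 h. The calls of Akap1, Gdap1, Inf2 and Marchf5 have edgeR adjusted p values of 0.00814 or less.

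Of 22 genes of fusion and inner membrane shape, 3 were higher and 6 lower at 120 h (median −0.06) and 4 higher and 10 lower at 144 h (−0.12), beside the 51.0% and 65.4% of all genes called. Chchd10, an intermembrane space protein, was at a mean of 584 against 2836 at 144 h (log2 fold change −2.28, SE 0.12, edgeR adjusted p = 2.05e-09). Miga2, a mitoguardin that promotes fusion, was higher at 120 h by 0.31 (SE 0.08, edgeR adjusted p = 0.00359), and Usp30, a deubiquitinase of the outer membrane, by 0.35 at 120 h and 0.45 at 144 h. Pld6, the mitochondrial phospholipase D, was lower by a log2 fold change of −0.84 (SE 0.11) at 144 h. Of 16 genes of mitophagy and mitochondrial transport, 6 were higher and 5 lower at 120 h and 5 higher and 7 lower at 144 h, among them the mitophagy receptor Bnip3l (0.65) and the cargo receptor Sqstm1 (−0.75) at 144 h. Of 28 tested genes of mitochondrial mass and import, 6 were higher and 12 lower at 120 h and 7 higher and 13 lower at 144 h. Among them were Polg, the mitochondrial DNA polymerase (−0.60), and Tomm40, the outer membrane import pore (−0.51), at 144 h. Earlier this list ran the other way, with 11 higher and 2 lower at 72 h (median 0.13, 29.1% of all genes called). At 48 h 6 of 27 were higher and 1 lower (0.08, 22.1%). The list of fusion and inner membrane shape had 4 higher and 2 lower at 72 h.

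Over the course from 0 to 144 h the list of mass and import genes had 3 rises and 23 falls among 28 in WT cells (median log2 fold change −0.40) and 2 rises and 23 falls in p53KO–emiRFP cells (−0.52), and that of fusion and inner membrane shape 3 rises and 15 falls among 22 in WT (−0.34) and 3 rises and 16 falls in p53KO–emiRFP cells (−0.39). Regulators of fission had 5 rises and 10 falls among 16 in WT (−0.19) and 7 rises and 6 falls in p53KO–emiRFP cells (0.14). Over all genes the medians were 0.00 and −0.03, and 74.6% and 73.8% passed. The 8 members had medians of −0.12 and −0.15.

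Finally, the genes with the most similar profile were looked up for each member, as the Pearson correlation of log2 mean levels over the 23 conditions among 14078 genes. These conditions share time points and libraries of a clone, and the values are a description. Mfn2 was closest to Miga2 (r = 0.966), the mitoguardin above, followed by Galnt10 (0.964) and Cisd2 (0.959), which encodes an iron–sulfur protein of the endoplasmic reticulum and outer mitochondrial membrane. Dnm1l was closest to Usp15 (0.964), Glo1 (0.958) and Clpp (0.956), the last a protease of the mitochondrial matrix. For Fis1 they were Dpp3, Lcmt1 and Cdc37 (0.966 to 0.955), for Opa1 Arcn1, Dffa and Ints9 (0.962 to 0.948), and for Mief1 Usp16, Mtmr9 and Preb (0.947 to 0.940). Mfn1 (Kyat3, Lrpap1 and Pcsk6, 0.867 to 0.841), Mief2 (Armh3, Dnajc27 and Akr1a1, 0.839 to 0.809) and Mff (Mrrf, Gdap2 and Gm20544, 0.809 to 0.733) had less similar neighbours. Among the members, Dnm1l and Opa1 were the most alike (0.82) and Fis1 and Mfn1 the least (−0.58), and Mfn1 and Mfn2 were at −0.23.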

How the data were processed

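Polyadenylated RNA of 69 libraries was sequenced by the study with a stranded kit. The authors trimmed reads with Trim Galore 0.6.7, aligned them with STAR 2.7.11b to GRCm38.p6 and deposited raw read counts per gene symbol. The strand setting is not given in the sources used here. Library totals were 26722541 to 72981570 counts. Every column was matched to a sample by its label, and 0 columns were left over.

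Genes were filtered with filterByExpr, scaled with median-of-ratios size factors over the 69 libraries and tested with the quasi-likelihood test of edgeR 4.0.16 in R 4.3.3, with Benjamini-Hochberg adjustment over all genes and a threshold of 0.05. Populations were compared within each time point, and time points and differences of steps in 1 fit of all libraries. The SE of a log2 fold change was derived from its F statistic. An exact permutation test of 3 against 3 libraries cannot go below p = 0.1. The share of all genes whose groups do not overlap was not counted, so that absence of overlap in a member is a description. Code was tested on simulated data. Alternatives were TMM scaling, no low-count filter, DESeq2 1.42.0, a block for the replicate number, leaving out each replicate, other sets of libraries in the fit and, for WT steps, WT–emiRFP cells alone.

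Levels per kilobase used the union of exons in Gencode M21. All 8 members were described, other pathway genes were named as chosen from the up to 3 called genes with the largest change of each list in each comparison, and the nearest patterns were the 3 genes with the highest correlation among genes with a mean normalized count of at least 50. The members and lists were chosen with earlier results of these data known.

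Replicate numbers came from the labels and mark separate experiments. Libraries of equal number deviated from their groups with correlations of 0.118 to 0.494 for p53KO–emiRFP with WT–emiRFP cells (18 of 18 pairs over 0.1), so these were paired. For WT–mCherry cells with different neighbours 14 of 15 pairs were over 0.1, with the exception at 120 h, and for the WT clones 16 of 18, with exceptions at 0 and 72 h. Consecutive time points in p53KO–emiRFP cells were paired from 48 to 120 h and not from 0 to 48 or 120 to 144 h (9 of 15 pairs over 0.1 in all).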

Additional observations from a re-analysis of the deposited data

Results flagged for a closer look

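Effects of the same step that differed between the genotypes, by a test of the difference itself, were found for the mitofusins from 96 to 120 h. The step of Mfn2 was −0.04 on the log2 scale in p53KO–emiRFP cells, and it was higher than that of WT–emiRFP cells by 0.45 (SE 0.06, edgeR adjusted p = 6.92e-08). The step of Mfn1 differed in the other direction, by −0.24 (SE 0.07, edgeR adjusted p = 0.00465). In this step 30.8% of all genes passed the same test. Groups of 3 libraries were too small to look for single libraries that stand apart.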

How the results depend on the processing

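No result changed its direction past the threshold under any alternative run. Of the 8 calls between p53KO–emiRFP and WT–emiRFP cells, 5 to 7 were left when 1 replicate was omitted, and 14 were made with the replicate block. The 2 calls between WT–mCherry cells with different neighbours became 1 with TMM, 1 with no low-count filter, 0 with only the compared groups, 6 with the replicate block and 0 to 1 with a replicate omitted. The 1 call between WT clones became 2 with DESeq2, 0 with only the compared groups, 6 with all 69 libraries in the fit, 7 with the replicate block and 0 with any replicate omitted. The 20 calls between time points in WT cells became 11 in WT–emiRFP cells alone, where fewer libraries were compared, and 15 to 21 with a replicate omitted. The 13 calls in p53KO–emiRFP cells became 7 with no low-count filter and 6 to 12 with a replicate omitted. The 2 differences of steps became 1 with no low-count filter and 1 to 2 with a replicate omitted. The 11 calls over the whole course became 7 to 11 with a replicate omitted. The cause of these changes was not tested. Where same numbers did not pair the samples, the block added Mief1 at 120 h beside p53KO cells (−0.12, edgeR adjusted p = 0.0392), between WT clones at 72 h, Mief2 (−0.22, edgeR adjusted p = 0.0247) and Mfn2 (−0.14, edgeR adjusted p = 0.0262), and, in p53KO–emiRFP cells from 0 to 48 h, Dnm1l (−0.15, edgeR adjusted p = 0.0476). It took the calls between time points from 20 to 21 in WT and from 13 to 18 in p53KO–emiRFP cells. The call added in WT cells was the fall of Fis1 from 120 to 144 h (−0.11, edgeR adjusted p = 0.0165). Whether same-numbered libraries deviated together over the steps of WT cells was not looked at. The block ended no call of a member. The lowest count of a member was 305, for Mief2, and the part of counting error in the spread of replicates was not tested.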
